A study of Mus musculus with 44 samples.

Results

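Clone 2 of CGR8 mouse embryonic stem (ES) cells with HexERTVP2 targeted to Rosa26, kept unrecombined and without 4-hydroxytamoxifen (4-OHT), was compared with the wild-type CGR8.8 cells. Arrays were taken by their titles, and an array was left out where the words of its title and the code in the same title disagreed. This gave 3 arrays of clone 2 and 4 of wild type, of 44 in the series. Total RNA was labelled with biotin and hybridised to 1 Affymetrix MG-U74Av2 array per sample. Clone 1 carries the same construct in the same state (5 arrays), and another line carries Hex in place of HexERTVP2, also unrecombined (4 arrays). Both clones were also profiled in 3 other states, which are unrecombined with 4-OHT, recombined without it and recombined with it. All groups derive from the CGR8.8 clone by the labels. Clone 2 is a single clone, so what the construct, the targeting, the selection and the history of the clone each contribute to a difference from wild type cannot be told apart.

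As the name reads, HexERTVP2 is a fusion of the homeodomain repressor Hex (gene symbol Hhex) with a 4-OHT-responsive part of the oestrogen receptor and with an activation domain. What recombination does in these lines is not stated in the labels. In designs of this kind it is usually the step that lets an inserted gene be expressed, so an untreated unrecombined clone serves as a starting state. ES cells are kept in a self-renewing state by a network of transcription factors and by the cytokine LIF. Clones of 1 ES line are known to drift apart in imprinted genes, in X-linked genes and in the share of cells that leave the naive state. Whether replicate arrays stand for separate cultures is not stated either, so the p-values rest on the spread among the arrays at hand, which may be technical. In bulk RNA, fewer cells of a type and less RNA per cell cannot be told apart.

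Both groups carried the ES cell markers. Of 8 such markers fixed as a list, 8 were measured and their log2 intensities lay between 8.12 and 12.4 on all 7 arrays. Pou5f1 differed by 0.04 on the log2 scale (adjusted p = 0.94) and Sox2 by −0.05 (adjusted p = 0.885, limma). Nanog and Fgf4 were the 2 markers of the 8 that fell. Over all genes 14.1% fell, and 21% in the 2 brighter quintiles of mean intensity. The call of Fgf4 (−0.27, limma adjusted p = 0.0471) was kept under only 5 of 18 alternatives, and that of Nanog under all 18. Median intensities of the assigned arrays were between 106.1 and 112.3, and array 2 of the unrecombined Hex group, which stood apart from the other arrays, was left out of the fit and of the values given for its group. Mean Pearson correlations of the clone 2 arrays with the fitted arrays were 0.9845, 0.9872 and 0.981, against 0.991, 0.9919, 0.9895 and 0.9899 for wild type. Clone 2 array 3 had the lowest value of the 39 fitted arrays. The log2 ratio of the 3′ to the 5′ Gapdh control probe set, which reflects RNA integrity, was 0.49, 0.0625 and 0.323 in clone 2 and 0.955, 0.786, 0.691 and 0.999 in wild type. These did not overlap (0.292 ± 0.215 against 0.858 ± 0.144; SD, n = 3 and 4; exact two-sided permutation p = 0.0571, the smallest that 7 arrays allow). The same ratio for β-actin overlapped (0.868 ± 0.533 against 1.2 ± 0.308; SD; exact permutation p = 0.343). How far RNA quality contributes to the differences below was not tested beyond the fits with these ratios as covariates.

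Of 12422 probe sets, 3152 (25.4%) passed an adjusted p of 0.05 in limma, 1713 higher (13.8%) and 1439 lower (11.6%) in clone 2. Most of these differences were small. Only 45 (0.362%) reached 2-fold, 1 of them higher (0.00805%) and 44 lower (0.354%) in clone 2. The count depended on single arrays, with 1513 without clone 2 array 3 and 2005 without wild-type array 4. It was 843 when the Hex array that stands apart was kept. After median centring 1250 were higher and 1616 lower, and after cyclic loess 984 and 1371, so the share of higher calls was 54.3% as deposited, 43.6% after centring and 41.8% after loess. It was 22.2% (215 higher, 753 lower) when the 7 arrays were fitted alone, 41.3% with array weights and 62.1% with the Gapdh ratio described above as a covariate. The prevailing direction over all probe sets thus changed with the setting. For comparison, clone 1 differed from the same wild-type arrays at 142 probe sets (1.14%; 0.282% higher and 0.861% lower) and unrecombined Hex cells at 451 (3.63%; 1.17% higher and 2.46% lower).

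The direction of change went with the brightness of the probe sets. In the dimmest quintile of mean intensity the median log2 difference of clone 2 from wild type was 0.0928, and 277 probe sets rose and 51 fell. In the brightest quintile the median was −0.146, with 145 higher and 531 lower. The medians of clone 1 in the same quintiles were 0.025 and −0.0196. A list of dim genes therefore starts from a higher share of rises than a list of bright genes. The SD of log2 intensity within an array was 1.818, 1.909 and 1.9 in clone 2. In wild type it was 1.926, 1.938, 1.967 and 1.924, with no overlap (exact two-sided permutation p = 0.0571, the smallest possible). What this narrower spread contributes to the differences was not tested. Over all 8251 genes, each by 1 probe set, 14.4% rose and 14.1% fell. In the 3 dimmer quintiles 19% of genes rose, and in the 2 brighter ones 21% fell. Without clone 2 array 3 the shares over all genes were 5.6% and 8.23%, and with all 40 arrays 3.45% and 4.02%. They were 13.9% and 10.3% with the Gapdh ratio as a covariate, and 8.87% and 12.7% after cyclic loess.

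**Figure D1:**
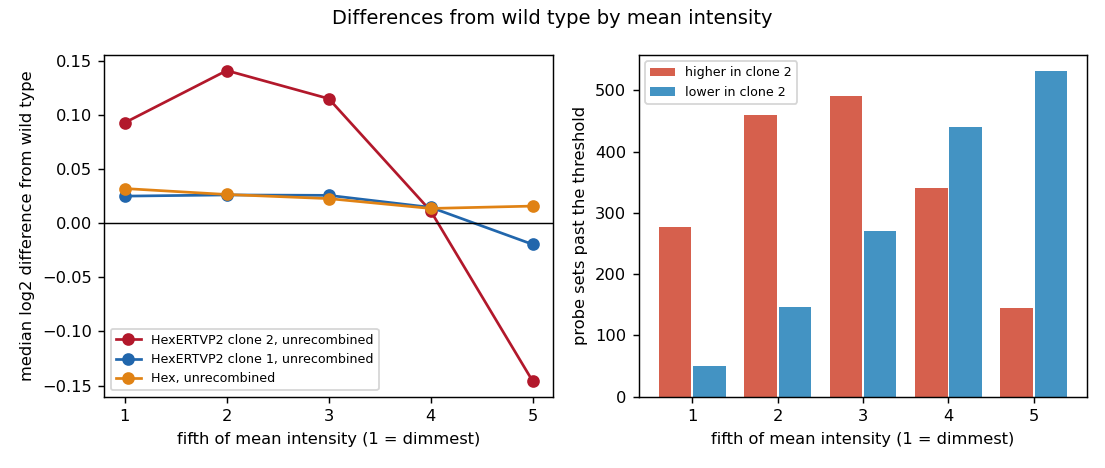
Median log2 difference from wild type (left) and number of probe sets past the threshold in clone 2 (right) by quintile of mean log2 intensity, from the dimmest (1) to the brightest (5). The clone 2 medians lie between 0.0928 and 0.141 in the 3 dimmer quintiles and at −0.146 in the brightest, while those of clone 1 and Hex stay between −0.0196 and 0.032.

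The largest falls among probe sets with 1 gene symbol, passing the threshold and with no overlap between the 3 and 4 arrays (2527 probe sets, 20.3% of all, met both, 10.6% higher and 9.78% lower), were those of Calml4, Pfkp, Rhox5, Mest and Dppa3. Calml4, a calmodulin-like gene, was at 6.63, 6.39 and 6.36 in clone 2, against 8.58, 8.81, 8.14 and 8.38 in wild type (log2 intensity), and fell by 2.02 (SE 0.14, adjusted p = 6.41e-12). Every clone 2 array lay well over 1 log2 unit below every wild-type array. Calml4 was also lower than wild type in clone 1 (−0.85, adjusted p = 6.96e-05) and in unrecombined Hex cells (−1.09, adjusted p = 2.23e-06), and the clones differed directly by −1.17 (SE 0.14, adjusted p = 3.8e-07). Rhpn2 fell by 1.25, Nabp1, a single-stranded DNA binding protein, by 1.21, and Cd1d1, which presents lipid antigens, by 1.22. These 3 lay within 0.12 of wild type in recombined clone 2 cells with 4-OHT or, for Nabp1, at −0.30, and none of these values passed there (limma adjusted p from 0.522 to 0.977). The other clone 2 states were not all alike. Of the 15 largest falls, 14 passed with the same sign against wild type in unrecombined clone 2 with 4-OHT. In recombined clone 2 this held for 6 without and 8 with 4-OHT.

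**Figure D2:**
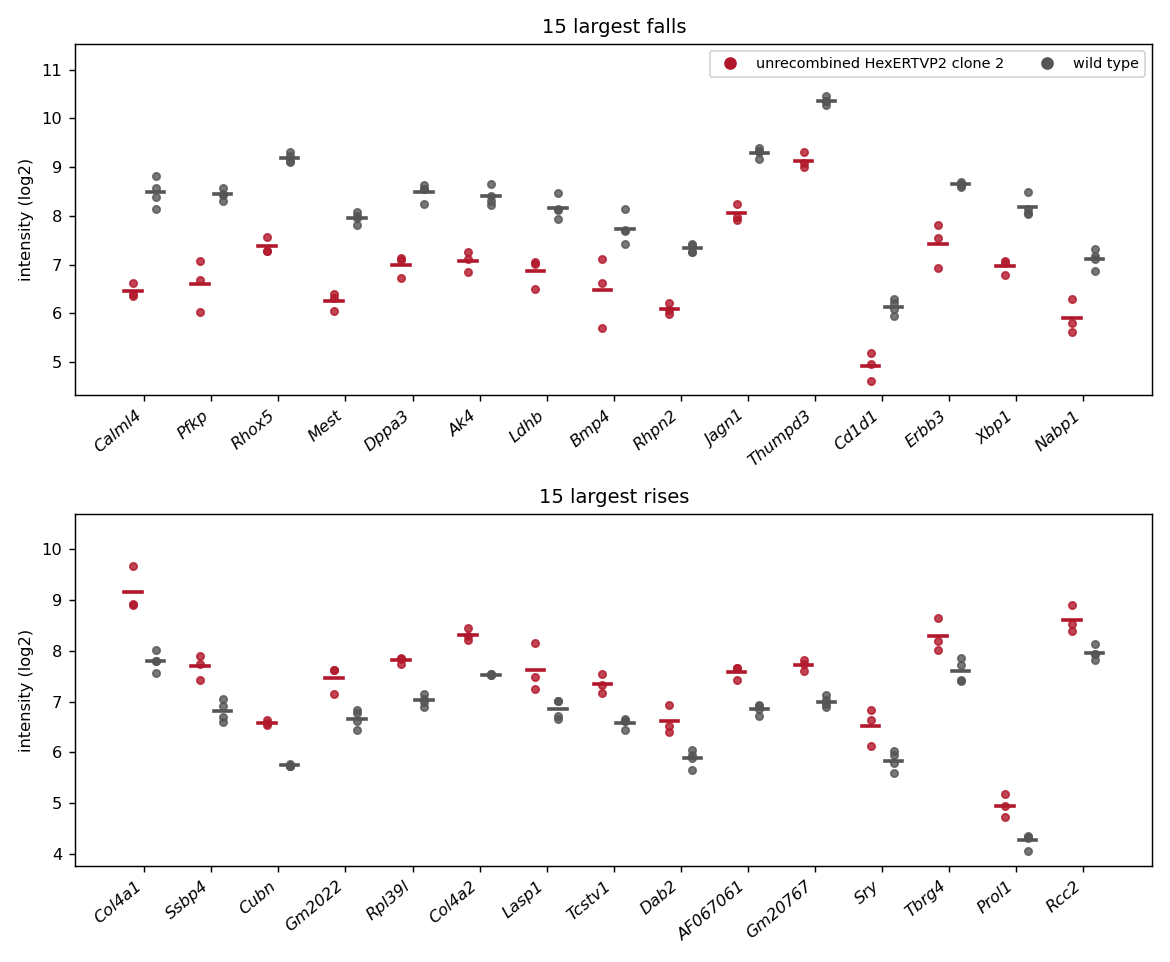
Log2 intensity of each array (points) and group mean (bars) for the 15 genes with the largest falls (top) and the 15 with the largest rises (bottom) under the naming rule, clone 2 left of wild type in each pair. In all 30 the arrays of the groups do not overlap, which the rule required.

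Mest and Peg3 are imprinted genes of which mouse tissues express the paternal copy, and Rhox5 is an X-linked homeobox gene whose expression is known to depend on DNA methylation. All 3 fell in clone 2. Mest had 6.05, 6.32 and 6.40 in clone 2, against 7.99, 7.82, 7.96 and 8.08 in wild type, and fell by 1.70 (SE 0.17, adjusted p = 1.66e-08). Clone 1 stood on the other side of wild type, at 8.84 ± 0.17 (SD, n = 5; 0.87 above wild type, adjusted p = 0.000793). The direct difference between the clones was −2.58 (adjusted p = 2.83e-13). Rhox5 had 7.56, 7.28 and 7.28 in clone 2, against 9.13, 9.31, 9.11 and 9.22 in wild type, and fell by 1.82 (SE 0.10, adjusted p = 5.41e-15). Its level in clone 1 was 8.77 ± 0.11 and in unrecombined Hex cells 8.36 ± 0.07 (SD, n = 5 and 3), so clone 2 was the lowest of the unrecombined lines. Peg3 fell on 2 of its 3 probe sets (−0.70 and −0.58, adjusted p = 0.000965 and 0.00533), and the third was at 0.19 (adjusted p = 0.431). In the probe set with the highest mean it had 8.23, 8.34 and 8.05 in clone 2, against 8.92, 9.02, 8.78 and 8.93 in wild type.

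The start regions of these 3 genes are shown because imprinting and silencing act through methylated CG pairs, which stand in capitals. Each window runs from 250 bases before to 50 bases after a transcription start of RefSeq (GRCm38.p6). For Mest, which has 3 such windows, the one with the most CG pairs is shown (chr6:30737800-30738099, plus strand), for Peg3 chr7:6730370-6730669 on the minus strand, and for Rhox5 chrX:37754358-37754657 on the plus strand.
Mest: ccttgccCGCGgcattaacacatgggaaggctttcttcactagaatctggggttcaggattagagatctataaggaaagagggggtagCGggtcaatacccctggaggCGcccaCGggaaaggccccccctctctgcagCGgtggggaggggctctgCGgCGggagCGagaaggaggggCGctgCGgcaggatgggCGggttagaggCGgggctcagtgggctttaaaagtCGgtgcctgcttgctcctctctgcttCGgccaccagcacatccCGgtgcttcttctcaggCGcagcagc
Peg3: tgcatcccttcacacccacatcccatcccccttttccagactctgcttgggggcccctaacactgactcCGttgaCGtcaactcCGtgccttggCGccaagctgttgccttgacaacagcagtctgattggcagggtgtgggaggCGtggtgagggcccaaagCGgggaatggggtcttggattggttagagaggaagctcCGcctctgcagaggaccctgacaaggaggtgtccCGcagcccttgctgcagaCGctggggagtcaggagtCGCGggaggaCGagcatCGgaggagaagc
Rhox5: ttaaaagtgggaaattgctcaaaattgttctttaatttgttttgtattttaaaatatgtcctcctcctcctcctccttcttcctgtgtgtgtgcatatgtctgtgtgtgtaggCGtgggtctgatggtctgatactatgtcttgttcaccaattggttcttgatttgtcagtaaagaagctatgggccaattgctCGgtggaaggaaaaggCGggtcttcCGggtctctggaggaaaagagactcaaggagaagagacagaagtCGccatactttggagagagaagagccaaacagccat
The windows hold 17, 13 and 5 CG pairs. Of 32851 windows of the same length, 31.4% hold at least as many as Mest, 37.9% at least as many as Peg3 and 62% at least as many as Rhox5, with a median of 7. Methylation was not measured on these arrays.

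The 2 clones were also compared in arrays that the comparison with wild type did not use. Averaged over the 3 other states, clone 2 differed from clone 1 by −2.15 in Mest (adjusted p = 7.4e-17), by −0.89 in Rhox5 (adjusted p = 4.11e-13) and by −0.83 in Calml4 (adjusted p = 2.06e-08). Peg3 differed by −0.43 and −0.60 on the probe sets that fell (adjusted p = 0.00234 and 2.89e-05). In the other states Mest ranged from 6.3 to 7.3 with a median of 6.8 on 9 arrays of clone 2, and from 8.38 to 9.66 with a median of 8.85 on 11 arrays of clone 1. Clone 2 and clone 1 arrays did not overlap in Mest in any state. Over all probe sets 197 (1.59%) passed in the other states, 0.902% higher and 0.684% lower in clone 2. Of the 3152 and the 197 probe sets, 82 were on both lists, 45 with the same sign (16 higher, 29 lower) and 37 with opposite signs. The 45 make up 1.43% of the longer list and 22.8% of the shorter. Among the 30 largest changes, 4 rises and 4 falls passed there with the same sign: Gm2022, Tcstv1, AF067061 and Gm20767 rose, and Calml4, Rhox5, Mest and Ak4 fell. Ak4, a mitochondrial adenylate kinase, differed by −0.48 (adjusted p = 3.14e-06).

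**Figure D3:**
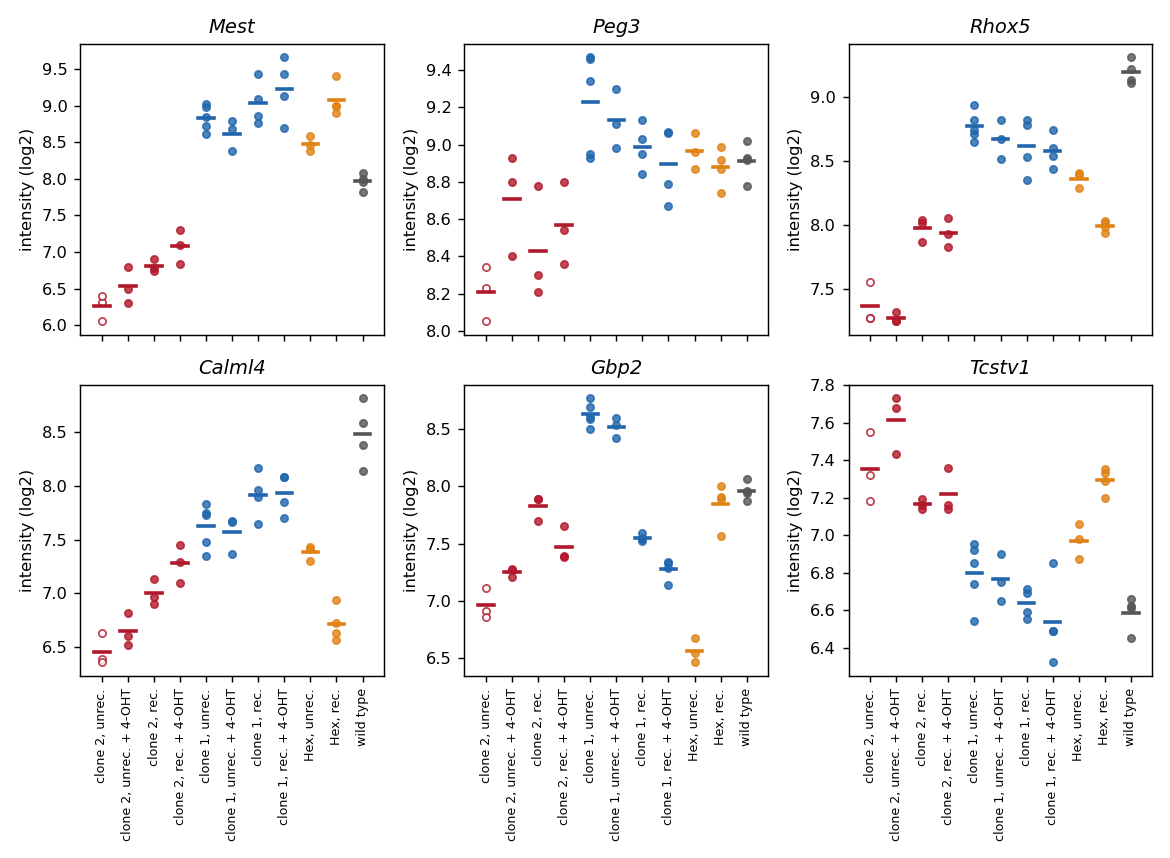
Log2 intensity of each array (points) and group mean (bars) of 6 genes in the 11 groups, with the untreated unrecombined clone 2 as open circles at the left and wild type at the right (unrec., unrecombined; rec., recombined; array 2 of unrecombined Hex is not drawn). Mest lies between 6.05 and 7.3 on all clone 2 arrays and at 7.82 or above on the other arrays drawn, while Gbp2 lies lower in unrecombined clone 2 and Hex cells and higher in unrecombined clone 1.

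Of 28 measured imprinted genes, 5 rose and 4 fell (17.9% and 14.3%, against 14.4% and 14.1% of all 8251 genes), with a median of 0.062 and 0.056 over all genes. Besides Mest and Peg3, the falls were those of the growth factor receptor Igf2r (−0.49, adjusted p = 0.00306) and the ubiquitin ligase Ube3a (−0.44). Grb10, a receptor adaptor that restrains growth, rose by 0.53, the growth factor Igf2 by 0.39, and Ascl2, a placental transcription factor, by 0.35. The genes of the list did not move as one group. The 19 members that did not pass lay between −0.35 (Impact) and 0.60 (Phlda2). Among them were Slc38a4 (−0.27), Mkrn3 (−0.22), Ndn (−0.13), Peg10 (−0.11) and Nnat (−0.07). The call of Igf2 was lost without clone 2 array 1 or array 3, and without wild-type array 3 or array 4.

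Of 23 measured pluripotency genes 10 fell (43.5%, against 14.1% of all genes) and 1 rose, and the median was −0.23. These genes are bright on the array, and 21 of them lay in the 2 brightest quintiles, where 21% of all genes fell (47.6% of the list's). Dppa3, which marks germ cells and naive ES cells, had 7.12, 7.10 and 6.73 in clone 2, against 8.55, 8.63, 8.24 and 8.54 in wild type, and fell by 1.5 (SE 0.13, adjusted p = 5.82e-10). Nanog, a core factor of the network, had 10.94, 10.58 and 10.43 in clone 2, against 11.63, 11.57, 11.31 and 11.57 in wild type, and fell by 0.86 (SE 0.12, adjusted p = 9.85e-06). Neither gene overlapped between the groups, which for Dppa3 the rule for the largest falls required. Of all probe sets, 29.4% did not overlap. The transcription factors Klf4 (−0.94) and Tfcp2l1 (−0.91) fell too, each on 1 of 2 probe sets, with the other at 0.07 and 0.02. Esrrb rose by 0.31, a call that was lost under 12 of 17 alternatives. Without clone 2 array 3 the counts were 8 fallen and 1 risen, with the Gapdh ratio as a covariate 7 and 0, and with all 40 arrays 5 and 0. These falls were 34.8%, 30.4% and 21.7% of the list, where 8.23%, 10.3% and 4.02% of all genes fell. Dppa3 was lower in clone 1 (−0.84, adjusted p = 2.01e-05) and in unrecombined Hex cells (−1.84, adjusted p = 3.2e-12) as well. Clone 2 lay below clone 1 in Dppa3 by 0.67 (adjusted p = 0.000576), but in the other states the clones differed by −0.17 (adjusted p = 0.501).

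In the list of germ cell precursor genes 5 of 11 fell (45.5%, against 14.1% of all genes) and 1 rose. Kit, the receptor of stem cell factor, had 7.09, 7.37 and 7.09 in clone 2, against 8.23, 8.02, 7.96 and 8.23 in wild type, and fell by 0.93 (adjusted p = 1.68e-08). Its ligand Kitl fell by 0.66 and Tfap2c, a transcription factor of germ cells and trophoblast, by 0.78. In the LIF list 4 of 16 fell (25%, against 14.1% of all genes) and 1 rose, the median being −0.011. Of its 11 members in the 2 brighter quintiles 3 fell (27.3%, against 21% of all genes there). With all 40 arrays 2 fell (12.5%, against 4.02% of all genes) and 0 rose. Il6st, the signalling subunit of the LIF receptor, fell by 0.89 on 1 of 2 probe sets (0.26 on the other), and the feedback inhibitors Socs2 and Socs3 by 0.92 and 0.74. Lifr, the ligand-binding subunit, fell by 0.63 on 1 of 5 probe sets, and 8 of 18 alternatives ended that call. The BMP list had 5 falls (31.2%, against 14.1% of all genes) and 1 rise among 16. In the 2 brighter quintiles 3 of its 7 members fell (42.9%, against 21% of all genes there). Without clone 2 array 3 the BMP list had only 1 fall (6.25%, against 8.23% of all genes) and 0 rises. The same counts were found with all 40 arrays, where 4.02% of all genes fell. Bmp4, the ligand that supports self-renewal with LIF, fell on both probe sets (−1.26 and −0.38, adjusted p = 0.000987 and 0.00403).

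Glycolysis and hypoxia genes had 10 falls (40%, against 14.1% of all genes) and 0 rises among 25 measured, with a median of −0.25. In the 2 brightest quintiles 8 of the 19 members there fell (42.1%), against 21% of all genes there. Pfkp, the platelet type of phosphofructokinase, had 6.02, 7.07 and 6.69 in clone 2, against 8.30, 8.44, 8.58 and 8.43 in wild type, and fell on both probe sets (−1.84 and −1.55, adjusted p = 2.6e-06 and 5.24e-06). Ak4 had 7.11, 7.26 and 6.84 in clone 2, against 8.66, 8.41, 8.23 and 8.31 in wild type (−1.33, SE 0.10, adjusted p = 1.1e-10). The groups did not overlap in either gene, which the rule for the largest falls required. Bnip3, a mitophagy receptor induced by hypoxia, fell by 1.11 (adjusted p = 2.77e-08) and Pdk1, which holds back pyruvate oxidation, by 0.87 (adjusted p = 1.06e-07). Ldha (−0.06) and Vegfa (0.12), both widely used as hypoxia targets, did not pass. The Vegfa probe set lies in the dimmest quintile, where only 51 of 2485 probe sets fell. Ldhb, the other lactate dehydrogenase subunit, fell by 1.31 on 1 probe set and stood at 0.16 on the other. The list had 9 falls (36%, against 8.23% of all genes) and 0 rises without clone 2 array 3. With all 40 arrays it had 4 falls (16%, against 4.02% of all genes) and 0 rises. Unrecombined Hex cells were lower too in Ak4 (−0.77, adjusted p = 6.18e-06), while clone 1 did not pass (−0.32, adjusted p = 0.0795).

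Among 30 interferon-induced and antigen processing genes 7 fell and 1 rose (23.3% and 3.33%, against 14.1% and 14.4% of all genes). The falls were led by guanylate-binding proteins, GTPases that interferon induces. Gbp2 had 6.91, 7.11 and 6.86 in clone 2, against 8.06, 7.94, 7.87 and 7.96 in wild type, and fell by 1 (SE 0.09, adjusted p = 1.23e-09). Gbp2b had 6.74, 6.55 and 6.61 in clone 2, against 7.54, 7.5, 7.56 and 7.70 in wild type, and fell by 0.94 (SE 0.11, adjusted p = 2.01e-07). Gbp3 fell by 1.03 and Irgm1, another interferon-induced GTPase, by 0.82. In clone 1 Gbp2 and Gbp2b lay above wild type, by 0.67 each, at 8.63 ± 0.10 and 8.25 ± 0.20 (SD, n = 5). The clones differed directly by −1.67 in Gbp2 (adjusted p = 1.1e-15), −1.61 in Gbp2b (adjusted p = 2.83e-13) and −1.40 in Gbp3 (adjusted p = 9.85e-08). In the other states the differences were −0.26, −0.34 and −0.25, and the first 2 passed (adjusted p = 0.00225, 0.00123 and 0.308). These are means over 3 states: in the recombined states the Gbp2 means of clone 2 were 7.83 and 7.47 without and with 4-OHT, against 7.55 and 7.27 in clone 1. Ifit1 (−0.08), Isg15 (−0.18) and Irf7 (0.21), also interferon targets, did not pass. The Ifit1 probe set lies in the dimmest quintile, where few probe sets fell. Members of this family resemble each other in sequence, and whether their probe sets share signal was not tested.

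The start regions of Gbp2 and Gbp2b are shown because both genes moved together, with matches to TTTC, any 2 bases and TTTC on either strand, the core of the element through which interferon regulatory factors act, in capitals. Both are on the plus strand of chromosome 3 (RefSeq, GRCm38.p6), at chr3:142620413-142620712 for Gbp2 and chr3:142594597-142594896 for Gbp2b.
Gbp2: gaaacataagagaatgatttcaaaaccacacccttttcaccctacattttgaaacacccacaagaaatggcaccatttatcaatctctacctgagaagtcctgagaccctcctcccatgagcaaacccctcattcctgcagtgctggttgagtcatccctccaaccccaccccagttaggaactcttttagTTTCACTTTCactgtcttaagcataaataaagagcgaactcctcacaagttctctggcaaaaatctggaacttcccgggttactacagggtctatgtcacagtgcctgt
Gbp2b: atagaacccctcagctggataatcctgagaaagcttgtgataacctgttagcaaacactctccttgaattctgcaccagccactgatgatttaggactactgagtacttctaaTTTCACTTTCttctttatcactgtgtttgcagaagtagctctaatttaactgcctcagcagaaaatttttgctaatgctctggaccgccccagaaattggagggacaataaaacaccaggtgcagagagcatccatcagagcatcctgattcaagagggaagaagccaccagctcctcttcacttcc
Each window holds 1 match, and 3.44% of the 32851 windows hold at least 1. A match is a description of the letters and no evidence of binding.

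Xbp1, a transcription factor of the unfolded protein response and here a member of the oestrogen response list, had 6.78, 7.08 and 7.04 in clone 2, against 8.05, 8.14, 8.48 and 8.04 in wild type, and fell by 1.21 (SE 0.17, adjusted p = 8.82e-06). Clone 1 did not differ from wild type by the test (−0.01, adjusted p = 0.998), and the clones differed by −1.20 (adjusted p = 1.05e-05). In recombined clone 2 Xbp1 was at 8.18 ± 0.18 without and 8.09 ± 0.26 with 4-OHT, against 8.18 ± 0.21 in wild type (SD, n = 3, 3 and 4). Among 32 heat shock proteins and chaperones 11 fell (34.4%, against 14.1% of all genes) and 1 rose. Of the 23 in the 2 brighter quintiles 6 fell (26.1%, against 21% of all genes there). The list had 7 falls (21.9%, against 8.23% of all genes) and 1 rise without clone 2 array 3. With all 40 arrays it had 2 falls (6.25%, against 4.02% of all genes) and 1 rise. Among the falls were those of Hspa5 (−0.90, adjusted p = 0.00206), Dnajc3 (−0.80) and Hsp90b1 (−0.67), chaperones of the endoplasmic reticulum. Their arrays did not overlap, which held for 29.4% of all probe sets.

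Cholesterol genes fell in 8 cases (38.1%, against 14.1% of all genes) and rose in 2 of 21, with a median of −0.36. In the 2 brighter quintiles 5 of 14 fell (35.7%, against 21% of all genes there). Hmgcs1, an early enzyme of the pathway, had 8.52, 8.56 and 8.60 in clone 2, against 9.51, 9.12, 9.13 and 9.43 in wild type (−0.73, adjusted p = 0.000986). Idi1 (−0.61) and Sqle (−0.59), enzymes further along, fell as well, while Mvk rose by 0.33 on 1 of 2 probe sets. Without clone 2 array 3 there were 7 falls (33.3%, against 8.23% of all genes) and 1 rise. With all 40 arrays there were 3 falls (14.3%, against 4.02% of all genes) and 0 rises. Among adhesion genes 6 of 39 fell (15.4%) and 4 rose (10.3%), shares near the 14.1% and 14.4% over all genes. Without clone 2 array 3, 2 fell (5.13%) and 3 rose (7.69%), against 8.23% and 5.6% of all genes. Cdh2 (N-cadherin) had 6.86, 6.32 and 5.55 in clone 2, against 7.69, 7.34, 7.01 and 7.44 in wild type (−1.12, adjusted p = 0.00448), and its call was lost without clone 2 array 3, its lowest array. Erbb3, a receptor of the epidermal growth factor family, fell by 1.22 on 1 probe set and rose by 0.31 on the other, and both passed.

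The largest rise was that of Col4a1, which encodes the α1 chain of collagen IV, the main collagen of basement membranes. It had 9.67, 8.92 and 8.91 in clone 2, against 8.01, 7.81, 7.57 and 7.81 in wild type, and rose by 1.37 (SE 0.19, adjusted p = 8.37e-06). Its partner chain Col4a2 had 8.29, 8.45 and 8.21 in clone 2, against 7.52, 7.54, 7.52 and 7.54 in wild type, and rose by 0.79 (SE 0.06, adjusted p = 1.58e-10). Neither gene overlapped, which the rule for the largest rises required. Clone 2 lay above clone 1 by 1.21 and 0.57 (adjusted p = 5.14e-05 and 7.92e-08). In unrecombined clone 2 with 4-OHT the differences from the same wild-type arrays were 1.93 and 0.82, and in recombined clone 2 they were 0.21 and 0.14, which did not pass (adjusted p = 0.984 and 0.972). Cubn, an endocytic receptor of the yolk sac, rose on both probe sets (0.84 and 0.40, adjusted p = 1.1e-07 and 0.0498), and Dab2, an endocytic adaptor, on 2 of 3 (0.73 and 0.33, adjusted p = 7.07e-05 and 0.00473). Lama1, a laminin chain of basement membranes, rose by 0.57 (adjusted p = 0.00624).

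These genes are markers of primitive and visceral endoderm, the extraembryonic layer that ES cells can form. Of 33 measured markers 13 rose (39.4%, against 14.4% of all genes) and 2 fell, with a median of 0.23. In the 3 dimmer quintiles 11 of 22 rose (50%), against 19% of all genes there. The summed linear intensity of the list was 6426 to 6875 on clone 2 arrays and 5248 to 5781 on wild-type arrays. The defining factors Gata4 and Gata6 were at 0.22 each and did not pass. The 2 falls were those of Sparc, a matrix protein of the same layer, by 0.44 and of Lrp2 by 0.28. Each of these calls was kept under only 6 of 18 alternatives. The count was 8 risen and 0 fallen without clone 2 array 3, 5 and 0 with all 40 arrays and 7 and 0 after cyclic loess. These rises were 24.2%, 15.2% and 21.2% of the list, where 5.6%, 3.45% and 8.87% of all genes rose. The part of a few endoderm cells in these rises was not tested.

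Lists of other cell types and of developmental genes were examined as well. Of 24 primitive streak and mesoderm genes 7 rose (29.2%) and 0 fell, of 35 homeobox genes 10 rose (28.6%) and 1 fell, and of 36 Wnt genes 11 rose (30.6%) and 2 fell, where 14.4% of all genes rose. In the 3 dimmer quintiles 26.3%, 26.7% and 40.9% of their members rose, where 19% of all genes did. Lrp5, a Wnt co-receptor, rose by 0.47, Hoxa3 by 0.45, Lhx1 by 0.43 and the Wnt receptor Fzd1 by 0.37. Without clone 2 array 3 the counts of rises were 2, 4 and 1, and with all 40 arrays 2, 5 and 4. Without clone 2 array 3 these were 8.33%, 11.4% and 2.78% of the lists, where 5.6% of all genes rose. With all 40 arrays they were 8.33%, 14.3% and 11.1%, where 3.45% did. The neuroectoderm list had 7 rises (26.9%) and 2 falls among 26. Without clone 2 array 3 it had 3 rises (11.5%) and 1 fall, and with all 40 arrays 2 (7.69%) and 0. Blood and endothelium had 6 rises (25%) and 2 falls among 24. Without clone 2 array 3 there were 4 rises (16.7%) and 2 falls, and with all 40 arrays 2 (8.33%) and 2. In the 3 dimmer quintiles 30% of the neuroectoderm members rose. Of the blood and endothelium members there 17.6% did, below the 19% of all genes. Fibroblast and smooth muscle genes, which would mark feeder cells, had 4 rises and 2 falls among 26 (15.4% and 7.69%), and 1 and 2 without clone 2 array 3, with summed intensities of 5589 to 6053 in clone 2 and 5442 to 5689 in wild type. The trophoblast list had 3 rises and 3 falls among 18 (16.7% each), shares near those over all genes. Without clone 2 array 3 it had 1 rise (5.56%) and 3 falls (16.7%), against 5.6% and 8.23% of all genes.

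**Figure D4:**
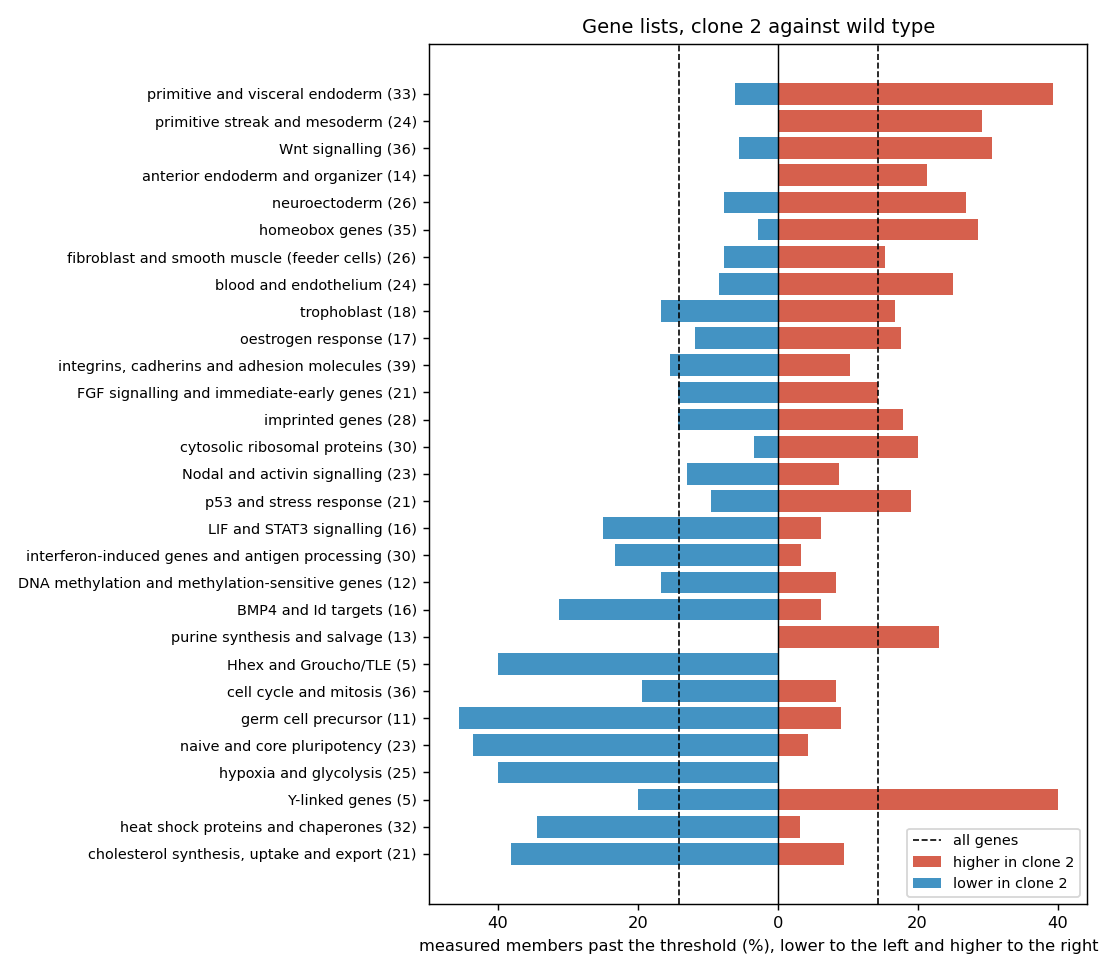
Share of measured members past the threshold, higher in clone 2 to the right and lower to the left, for each gene list (number measured in brackets), ordered by median change. Dashed lines mark the shares over all genes, 14.4% higher and 14.1% lower. Endoderm and Wnt lists reach furthest right, setting aside the Y-linked list of 5 genes, and the germ cell and pluripotency lists furthest left.

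A further group of rises holds Tcstv1, AF067061 and Gm20767, related genes on chromosome 13, and Gm2022 on chromosome 12. Tcstv1 is known from early cleavage-stage embryos and from the rare ES cells that resemble them. It had 7.18, 7.32 and 7.55 in clone 2, against 6.61, 6.62, 6.45 and 6.66 in wild type, and rose by 0.77 (SE 0.10, adjusted p = 4.14e-06). AF067061 rose by 0.73, Gm20767 by 0.72, Gm2022 by 0.81 and, outside the naming rule, Tcstv3 by 0.52. Clone 2 was also the higher clone in the other states, by 0.69 in Tcstv1 (adjusted p = 1.99e-09), 0.71 in AF067061, 0.74 in Gm20767 and 0.70 in Gm2022. Their probe sets carry the suffix by which the manufacturer marks sets shared by a family of sequences, so these are not independent measurements of separate genes. Among the other rises, Ssbp4 (0.88), Lasp1 (0.78), Tbrg4 (0.69) and Rcc2 (0.66) rested on 1 of 2 or 3 probe sets. Of these, Lasp1, Tbrg4 and Rcc2 lost their calls without clone 2 array 2 and with the Gapdh ratio as a covariate (Lasp1 also without wild-type array 1 or array 4). Rpl39l, a ribosomal protein paralogue, rose by 0.79 and was higher than wild type in clone 1 (0.52, adjusted p = 0.00177) and in unrecombined Hex cells (0.95, adjusted p = 3.2e-07) as well.

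Hhex itself, Nodal and Tle4 did not pass the test. The Hhex probe set had 6.14, 6.23 and 5.95 in clone 2, against 6.11, 6.23, 6.15 and 6.08 in wild type (−0.03, SE 0.08, adjusted p = 0.793). Whether this probe set detects the inserted sequence is not known from the files. Nodal, a TGF-β family ligand, had 7.53, 7.82 and 7.94 in clone 2, against 7.78, 7.79, 8.07 and 7.86 in wild type (−0.11, SE 0.15, adjusted p = 0.598). Tle4, a Groucho co-repressor, had 8.28, 8.94 and 8.88 in clone 2, against 9.14, 8.60, 8.82 and 8.78 in wild type (−0.13, SE 0.25, adjusted p = 0.702). The groups overlapped in all 3. The related co-repressors Tle1 and Tle3 fell, by 0.73 (adjusted p = 3.45e-06) and 0.39 (adjusted p = 0.00102).

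The targeted locus itself read lower. The transcript of Rosa26, Gt(ROSA)26Sor on chromosome 6, had 4.34, 4.2 and 4.3 in clone 2, against 5.54, 5.44, 5.14 and 5.32 in wild type, and fell by 1.08 (SE 0.13, adjusted p = 1.06e-06). It is dim and was not shown to exceed background. Clone 1 was lower by 0.94 (adjusted p = 1.2e-05), and the clones did not differ by the test (−0.14, adjusted p = 0.464), while unrecombined Hex cells were at −0.21 (adjusted p = 0.688). Thumpd3, the measured gene just before it in RefSeq order, for which the RefSeq gene table lists a Rosa26 antisense name, had 9.31, 9.09 and 9 in clone 2, against 10.36, 10.46, 10.28 and 10.36 in wild type. It fell by 1.23 (SE 0.13, adjusted p = 9.18e-08), and stood at −0.89 in clone 1 and −0.89 in unrecombined Hex cells (adjusted p = 1.91e-05 and 3.82e-05).

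Genes further along the chromosome were examined after their values had been seen, as the 12 measured genes on each side in RefSeq order. Of these 24, 9 fell and 4 rose, where 14.1% and 14.4% of all genes did. Among the 10 that were brighter than the median probe set, which also were picked after their values were seen, 6 fell, Thumpd3 among them, and 0 rose. Of all genes in the 2 brighter quintiles 21% fell. That set is cut higher, at a mean log2 intensity of 7.28 and not at the median of 6.77. The median difference of the 10 was −0.48 in clone 2, −0.40 in clone 1 and −0.39 in unrecombined Hex cells. Jagn1, an endoplasmic reticulum protein, had 7.92, 8.24 and 7.98 in clone 2, against 9.30, 9.32, 9.39 and 9.17 in wild type, and fell by 1.25 (SE 0.15, adjusted p = 5.75e-07). Brk1, a subunit of the actin-regulating WAVE complex, fell by 0.82 (adjusted p = 0.00019), Sec13, a coat protein, by 0.66, and Emc3, a membrane protein insertase subunit, by 0.55 on 1 of 2 probe sets (0.33 on the other). The calls of Sec13 and Emc3 were lost without clone 2 array 1. Arpc4 (−0.05) and Ogg1 (0.18), between Gt(ROSA)26Sor and Jagn1, did not pass. Between Brk1 and Sec13, Vhl, a tumour suppressor that targets hypoxia factors for degradation, rose by 0.20 (adjusted p = 0.0471). This call was kept under only 3 of 17 alternatives. Ghrl, the ghrelin gene, also between Brk1 and Sec13, was at 0.22 (adjusted p = 0.103). Clone 2 lay below clone 1 in Jagn1 by 0.50 (adjusted p = 0.0214), and the difference in Brk1 was −0.20 (adjusted p = 0.318).

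**Figure D5:**
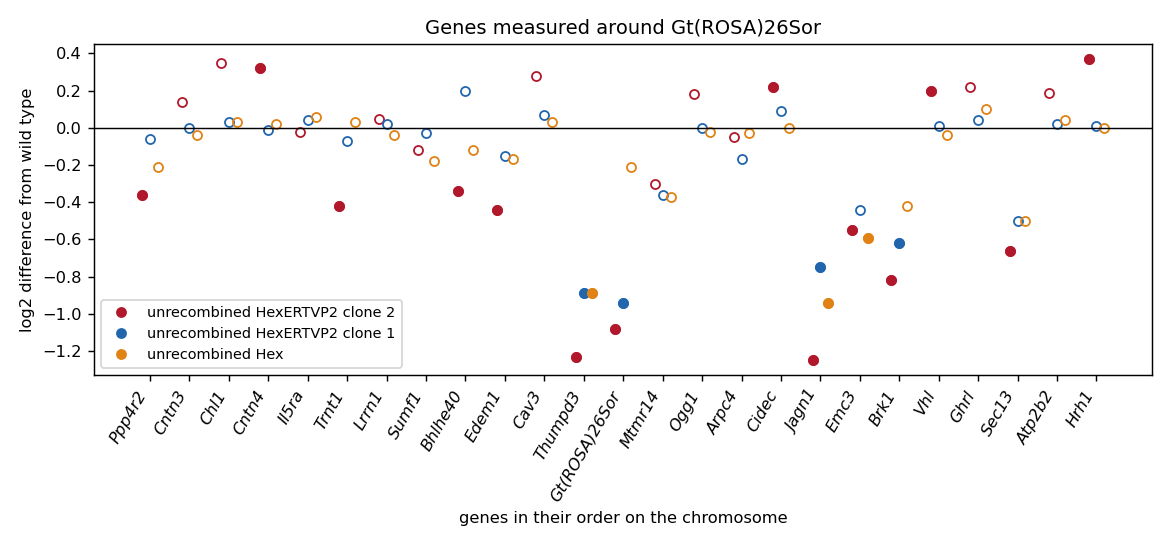
Log2 difference from wild type of Gt(ROSA)26Sor and the 12 measured genes on each side, in their order on chromosome 6, for unrecombined clone 2, clone 1 and Hex cells (filled, adjusted p under 0.05). Thumpd3, Jagn1 and Brk1 stand at −1.23, −1.25 and −0.82 in clone 2 and below −0.4 in the other lines too.

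Clone 2 was set against clone 1 directly, both unrecombined and without 4-OHT, to ask which differences the second clone of the construct does not share. At 1555 probe sets (12.5%) the clones differed, 728 higher (5.86%) and 827 lower (6.66%) in clone 2. The count was 489 without clone 2 array 3, 997 without clone 1 array 1, 962 without clone 1 array 4 and 250 with all 40 arrays. Against the mean of its own 3 other states, the untreated unrecombined state of clone 2 differed at 1307 probe sets (10.5%), 489 higher (3.94%) and 818 lower (6.59%). Ak4 (−0.76, adjusted p = 6.89e-06), Xbp1 (−0.85, adjusted p = 0.000763) and Nabp1 (−0.86, adjusted p = 3.99e-05) were among the named genes that lay below the other states. Tcstv1 (0.02, adjusted p = 0.908) and AF067061 (−0.03, adjusted p = 0.866) did not pass in that comparison. Against the same wild-type arrays, 303 probe sets (2.44%) passed in unrecombined clone 2 with 4-OHT, 0.58% higher and 1.86% lower. In recombined clone 2 there were 38 (0.306%; 0.0483% higher and 0.258% lower), and with 4-OHT 89 (0.716%; 0.0966% higher and 0.62% lower). Mest stood at −1.43, −1.16 and −0.88 in these 3 states, Rhox5 at −1.92, −1.22 and −1.25, and Calml4 at −1.82, −1.48 and −1.20, each with an adjusted p of 0.00472 or less. Xbp1 stood at −1, 0 and −0.09, and passed in the first of them (adjusted p = 0.000331).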

How the data were processed

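Total RNA of each sample was hybridised to 1 Affymetrix array. The deposited values are linear intensity values per probe set, made with RMA per the submitters' processing notes; RMA settings and version are not given in the sources used here. Log2 of these values was taken. Of 12488 probe sets, 66 controls were left out and 12422 were tested, of which 10833 carried 1 gene symbol, 396 several and 1193 none; 10817 Entrez identifiers matched the GRCm38.p6 RefSeq gene table. Groups came from the titles, and 4 arrays whose titles contradict themselves were left out. Intensities carry no count depth, so precision is set by how many arrays each group has.

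The limma package (version 3.58.1, R 4.3.3) fitted 39 arrays in 11 groups (28 residual degrees of freedom, lmFit, contrasts.fit and eBayes), with Benjamini-Hochberg adjustment over all 12422 probe sets and a threshold of 0.05. Array 2 of the unrecombined Hex group was left out. The fit was tested on simulated data with independent noise in each probe set and array. Shifts shared by a whole array were not simulated, so that test does not cover them. Named genes are Hhex, Tle4, Nodal and Gt(ROSA)26Sor, up to 15 rises and 15 falls that pass with no overlap between arrays, and up to 4 passing members of each of 29 gene lists in each direction; others named are said to be outside this rule or given as values that did not pass. Where a list gene has several probe sets, the one of highest mean intensity stands for it. The members and lists were chosen with earlier results of these data known. Plots used Python 3.11.15 and matplotlib 3.10.9. Alternatives covered normalization, covariates, array weights, the arrays fitted and each array left out.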

Additional observations from a re-analysis of the deposited data

Results flagged for a closer look

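Among the 30 genes with the largest changes and the 4 genes fixed by name, 34 in all, the direct difference of clone 2 from clone 1, both unrecombined and without 4-OHT, passed an adjusted p of 0.05 in limma for 24. Over all probe sets 12.5% passed in this comparison. Of the 34, 30 were picked for large changes on the same clone 2 arrays, so the 24 are given as values and not as evidence that these genes stand out. The 11 that were higher in clone 2 were Col4a1 by 1.21, Sry by 0.69, Ssbp4 by 0.68, Cubn by 0.68, Prol1 by 0.64, Gm2022 by 0.60, Col4a2 by 0.57, Tcstv1 by 0.55, Gm20767 by 0.49, AF067061 by 0.44 and Dab2 by 0.36 on the log2 scale. Of the 13 that were lower in clone 2, Mest (−2.58), Rhox5 (−1.40), Pfkp (−1.22), Xbp1 (−1.20), Calml4 (−1.17) and Ak4 (−1.01) differed by over 1 log2 unit. The others were Nabp1 (−0.81), Rhpn2 (−0.71), Dppa3 (−0.67), Ldhb (−0.65), Cd1d1 (−0.59), Jagn1 (−0.50) and Erbb3 (−0.43).

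One array stood apart from its group in a named gene. Prol1 read 4.05 on wild-type array 3, against 4.31 to 4.36 on the other wild-type arrays. A gap of this size relative to the group's range is met by chance in about 1 of 20 groups, and 1 of the 68 groups tested showed it. The values come from a dim probe set.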

How the results depend on the processing

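The count against wild type (3152) was 843 with all 40 arrays, 968 with the 7 arrays alone, 1918 over probe sets above the median intensity, 5226 when the β-actin ratio entered as covariate, 2046 with array weights, 1210 at a threshold of 0.01, and 1513 to 3429 with 1 array left out. The count against clone 1 (1555) was 250, 215, 928, 3217, 858 and 491 under the same 6 settings and 489 to 2037 with 1 array left out. The count over the 3 other states (197) was 80 with all 40 arrays, 398 with the β-actin ratio, 468 with array weights, 125 at 0.01 and 160 to 209 with 1 array left out. The cause of these moves was not tested, except that a stricter threshold or fewer probe sets pass fewer by construction. Cyclic loess and the Gapdh ratio as a covariate, both chosen after seeing the data, gave 2355 and 2800 against wild type. The β-actin ratio difference of −0.33 lay between −0.64 and −0.17 with 1 array left out. No named probe set past the threshold changed sign, but the balance of calls against wild type did: 1713 higher and 1439 lower as deposited, 215 and 753 with the 7 arrays alone, 846 and 1200 with array weights. Of 197 named probe sets past the threshold, 75 kept their call in all alternatives run, 102 with all 40 arrays and 127 without clone 2 array 3. The labels do not say whether replicate numbers pair the arrays. Deviations of same-numbered clone 2 and wild-type arrays correlated by 0.62, −0.094 and 0.53, which does not settle it. With the replicate block the counts were 3282, 1945 and 266.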

Other observations

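Titles of 4 arrays contradict themselves, naming one group in words and another by code, and these arrays entered no comparison. Numbered 1 to 4 in the order of their accessions, they read 8.91, 6.51, 6.72 and 7.08 for Mest (log2 intensity), 8.70, 7.27, 8.13 and 8.03 for Rhox5, and 7.89, 6.32, 6.82 and 7.29 for Calml4. Ak4 read 8.25, 7.25, 8.07 and 8.07.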
